A study of Mus musculus with 18 samples.

Results

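Non-canonical imprinted genes are expressed from the paternal allele, mainly in the placenta and other extraembryonic tissue, although they lack a differentially methylated region inherited from the germline. Slc38a4, Sfmbt2, Gab1, Jade1 and Smoc1 were taken as 5 such genes by name, and their positions were read from the deposited annotation, in which 35853 genes lie at 1 locus. The window of a gene held all its transcripts and 10 kb on each side. The called share is the percentage of a window inside H3K9me3 peaks, and it was measured in 6 ChIP-seq peak lists from E14TG2a mouse embryonic stem cells (mESCs), 2 libraries each of wild-type, Uhrf1 KO and Dhx9 KO cells.

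At non-canonical imprinted genes the maternal allele is marked in the oocyte by H3K27me3, the Polycomb mark, and not by DNA methylation. This mark silences the maternal copy in the early embryo, and in extraembryonic lineages DNA methylation takes its place on the maternal allele. Canonical imprinted genes instead carry DNA methylation from the germline, and their methylated allele is held in H3K9me3 by the zinc finger protein ZFP57 with KAP1 and SETDB1. UHRF1 brings the maintenance DNA methyltransferase DNMT1 to newly replicated DNA, and DHX9 is a DExH-box RNA helicase. The lists do not separate the parental alleles, and mESCs stand for the epiblast rather than for the placenta, so no imprint was measured here.

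The study works with cells that carry a reporter on chromosome 2, at which TetR-KRAB can nucleate H3K9me3, and its Uhrf1 KO cells are CRISPR-Cas9 clones of these. The labels of the 6 libraries give the knockout and the replicate number, but no allele or clone, and how the Dhx9 KO cells were made is not given in the sources used here. The cells were grown in serum with LIF. The study's methods call the libraries of a genotype biological replicates, without saying whether these are clones or cultures. Peak lists cannot check the knockouts, because H3K9me3 at Uhrf1 or Dhx9 says nothing of their protein. Pou5f1, Sox2 and Zfp42, which mark mESCs, had no peak in any of the 6 lists, and Nanog had peaks over 11.6% ± 5.32 (SD, n = 2) of its window in wild-type cells, none in Uhrf1 KO and 3.76% ± 5.32 in Dhx9 KO cells.

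The wild-type lists held 116156 and 119982 peaks, the Uhrf1 KO lists 70195 and 93916, and the Dhx9 KO lists 125453 and 120695. The peaks of Uhrf1 KO replicate 1 held 32.9 ChIP reads per kb, against 48.3 to 51.4 in the other libraries. For peaks with the same limits in 2 lists, the background reads were equal in 100% of cases among the wild-type and Dhx9 KO lists, but in at most 4.29% between a Uhrf1 KO list and any of these. The Uhrf1 KO lists thus rest on other background reads, which differs from the stated use of wild-type input throughout, so that in this comparison the knockout and its background cannot be told apart. Reads outside peaks are not in the lists, so that a gene without a peak has no read count and may still carry H3K9me3 below the calling threshold.

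The sequences below are the stretches at which the peaks of these genes were shared or absent, and they are shown because the results turn on them. Each is 300 bases of the forward strand of the mm10 genome (GRCm38), taken from the middle of a stretch that lies in peaks of the named libraries and moved off exons where needed, with every CpG in capitals. The Jade1 entry is the 250 bases before its first annotated start.
Sfmbt2, intron 12, in a peak of 5 libraries, chr2:10529951-10530250: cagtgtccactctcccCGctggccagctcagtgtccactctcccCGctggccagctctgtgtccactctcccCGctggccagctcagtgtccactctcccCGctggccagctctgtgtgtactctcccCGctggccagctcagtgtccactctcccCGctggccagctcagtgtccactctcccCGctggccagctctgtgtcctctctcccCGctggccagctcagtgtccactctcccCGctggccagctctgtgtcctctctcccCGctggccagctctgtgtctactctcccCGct
Smoc1, intron 7, in a peak of all 6 libraries, chr12:81153751-81154050: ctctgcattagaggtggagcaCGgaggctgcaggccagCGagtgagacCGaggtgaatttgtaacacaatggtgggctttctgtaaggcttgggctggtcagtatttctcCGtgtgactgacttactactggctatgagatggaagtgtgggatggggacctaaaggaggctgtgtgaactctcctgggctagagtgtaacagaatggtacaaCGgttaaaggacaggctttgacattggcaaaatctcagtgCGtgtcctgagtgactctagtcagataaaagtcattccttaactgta
Smoc1, intron 3, in peaks of both wild-type libraries and of neither Uhrf1 KO library, chr12:81106151-81106450: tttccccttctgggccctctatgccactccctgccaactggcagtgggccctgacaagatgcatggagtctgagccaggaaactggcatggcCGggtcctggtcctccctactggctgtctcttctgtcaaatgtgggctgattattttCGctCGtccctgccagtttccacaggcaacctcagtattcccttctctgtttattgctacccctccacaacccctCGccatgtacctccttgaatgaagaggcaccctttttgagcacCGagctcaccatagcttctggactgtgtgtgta
Gab1, upstream, in a peak of 5 libraries, chr8:80884851-80885150: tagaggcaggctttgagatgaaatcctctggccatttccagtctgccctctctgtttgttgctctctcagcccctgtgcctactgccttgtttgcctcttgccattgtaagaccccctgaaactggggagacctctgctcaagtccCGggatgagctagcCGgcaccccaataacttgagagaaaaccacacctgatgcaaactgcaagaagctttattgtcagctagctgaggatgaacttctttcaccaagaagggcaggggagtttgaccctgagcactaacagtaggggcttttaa
Slc38a4, downstream, in a peak of all 6 libraries, chr15:96984851-96985150: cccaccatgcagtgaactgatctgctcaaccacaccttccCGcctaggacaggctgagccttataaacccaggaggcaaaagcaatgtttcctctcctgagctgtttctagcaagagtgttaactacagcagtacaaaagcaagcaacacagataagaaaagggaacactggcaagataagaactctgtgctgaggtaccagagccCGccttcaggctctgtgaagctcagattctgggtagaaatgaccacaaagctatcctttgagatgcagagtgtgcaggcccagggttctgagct
Jade1, promoter, in no peak of any library, chr3:41555484-41555733: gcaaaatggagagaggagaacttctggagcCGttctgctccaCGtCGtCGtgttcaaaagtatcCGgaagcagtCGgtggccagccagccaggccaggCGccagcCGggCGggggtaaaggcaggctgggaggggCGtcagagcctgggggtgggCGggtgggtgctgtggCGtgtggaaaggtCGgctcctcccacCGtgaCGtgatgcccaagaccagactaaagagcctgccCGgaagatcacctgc

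Introns were counted along NM_177386.5 for Sfmbt2 and NM_022316.2 for Smoc1. The Sfmbt2 stretch held 11 CpGs, and its letters recur in tandem. In the peak of wild-type replicate 1 from which it was taken (chr2:10529601-10530400), 85.5% of the bases equalled the base 56 positions further on. For each of the 14757 peaks of up to 1000 bases in that list, the largest share over periods of up to 100 bases was taken. Only 0.583% of them had a largest share at least as high, and the median was 31.2%. The Smoc1 stretches held 6 and 5 CpGs, the Gab1 and Slc38a4 stretches 2 each, and the Jade1 promoter 16.

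**Figure D1:**
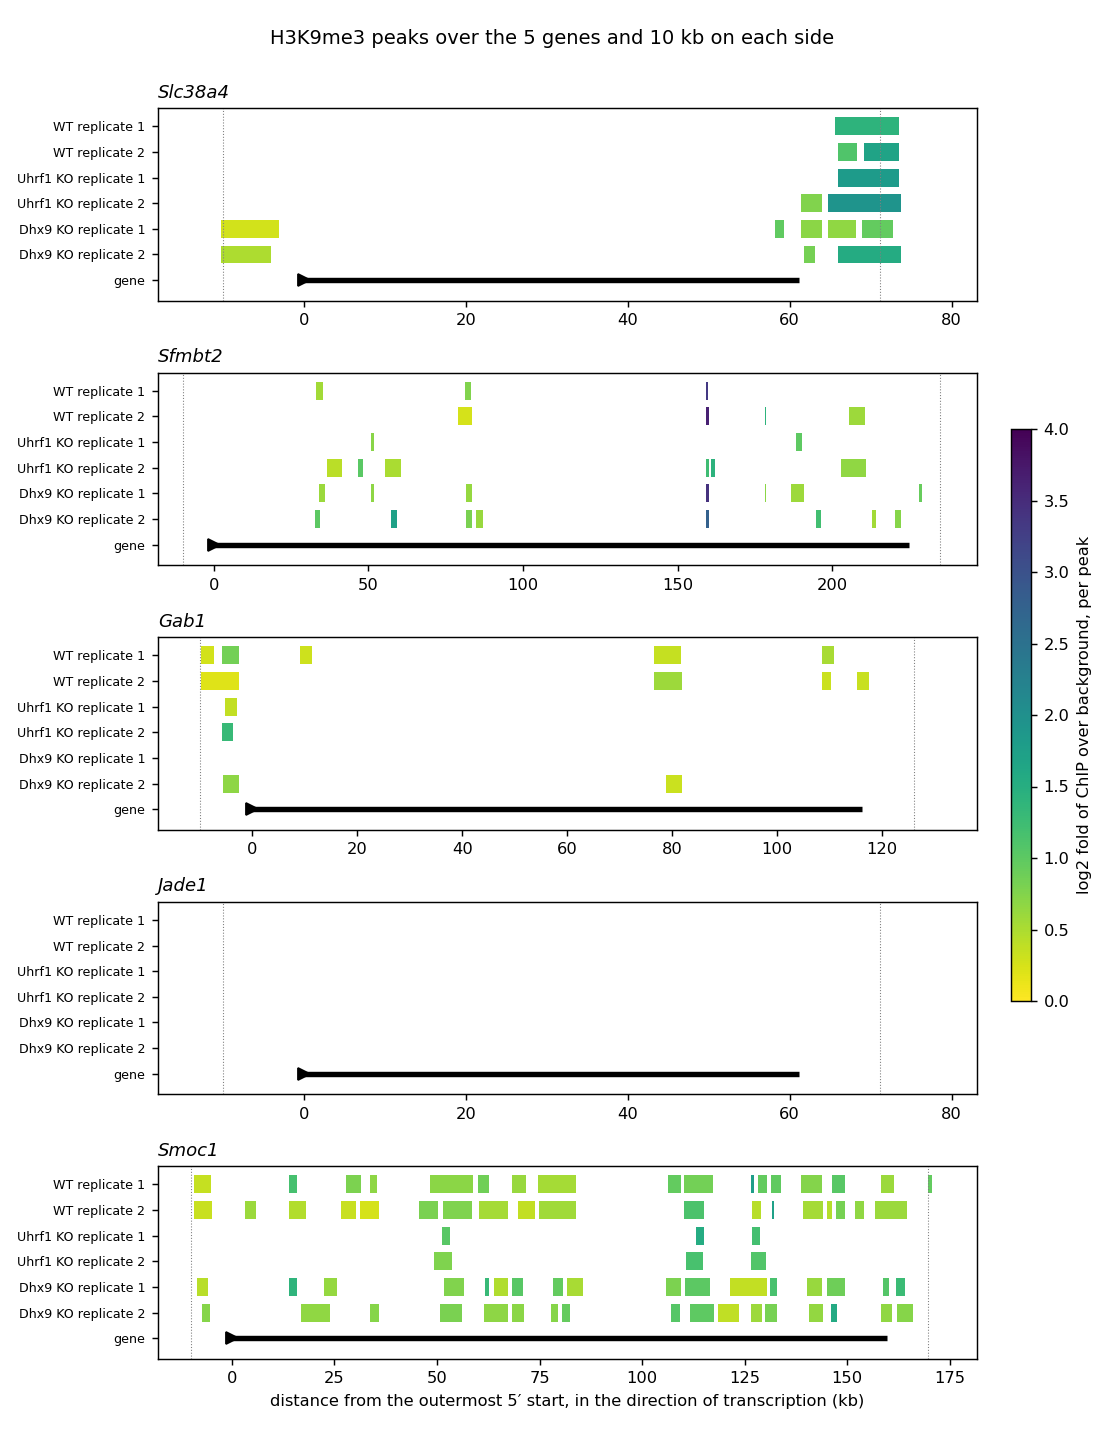
Each panel shows a gene window, with the distance from the outermost 5′ start in kb along transcription on the x axis and the 6 libraries as rows. Bars are peaks coloured by the log2 fold of ChIP over background, the black line is the gene, and dotted lines mark the window ends. Smoc1 holds 17 and 18 peaks in the wild-type libraries and 3 in each Uhrf1 KO library, while Jade1 holds none in any library.

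Smoc1 encodes a secreted calcium-binding matrix protein that modulates BMP signaling. It lies on chr12:81026808-81186414 and had the highest called share of the 5 genes in both wild-type libraries. Wild-type replicates 1 and 2 had 17 and 18 peaks over 35.9% and 43.0% of the window. Uhrf1 KO replicates 1 and 2 had 3 peaks each, over 3.34% and 6.79%. Dhx9 KO replicates 1 and 2 had 17 peaks each, over 32.4% and 33.0%. Both knockouts lay below both wild-type libraries, by a wide margin in Uhrf1 KO and by less than the distance between the wild-type replicates in Dhx9 KO. The called share was 39.4% ± 5.03 (SD, n = 2) in wild-type, 5.07% ± 2.44 in Uhrf1 KO and 32.7% ± 0.394 in Dhx9 KO cells, or 0.129 and 0.829 times the wild-type mean.

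The peaks of Smoc1 lay mainly inside the gene, 15 of 17 in wild-type replicate 1 and 17 of 18 in wild-type replicate 2. Wild-type peaks were weak, with a median log2 fold of ChIP over background of 0.85 and 0.55, against 1.05 and 1.06 over the whole lists. Of these peaks, 14 of 17 and 16 of 18 had a log2 fold under 1, which held for 46.1% and 45.6% of all wild-type peaks. Peaks that overlapped between the wild-type and Uhrf1 KO libraries were joined into regions, and 13 regions of Smoc1 were called in both wild-type libraries. Of these, 10 were called in neither Uhrf1 KO library, which is what lost means here, and 3 in both. Gained means the reverse, called in both knockout libraries and in neither wild-type library.

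The 3 remaining Smoc1 regions were the same places in both Uhrf1 KO libraries, all inside the gene, and only 1 of these peaks, in Uhrf1 KO replicate 2, touched an exon. The first (chr12:81072401-81085600) held 377 and 409 ChIP reads in peaks of wild-type cells and 38 and 136 in those of Uhrf1 KO replicates 1 and 2, within a called length that was shorter in both Uhrf1 KO lists. The second (chr12:81137001-81144200) held 288 and 237 reads over called lengths of 7200 and 4800 bp in wild-type cells. In Uhrf1 KO replicates 1 and 2 it held 38 and 145 reads over 2000 and 4200 bp. The third (chr12:81153401-81157200), from which the intron 7 stretch was printed, held 141 and 90 reads over 3000 and 2200 bp in wild-type cells. Its Uhrf1 KO peaks held 41 and 119 reads over 2000 and 3600 bp. Per called length, the log2 changes of the 3 regions were -0.06, -0.30 and -0.25 (edgeR), and none passed. Regions without a Uhrf1 KO peak had a median of 1.11 CpGs per 100 bases and the 3 remaining regions 1.44, against 1.00 and 1.01 for such regions over the genome. These are descriptions of 10 and 3 regions.

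Gab1 encodes a docking protein that links receptor tyrosine kinases to downstream signaling. It lies on the reverse strand at chr8:80764431-80880519. Wild-type replicates 1 and 2 had 5 and 4 peaks over 15.8 and 16.8 kb, or 11.6% and 12.3% of the window. Uhrf1 KO replicates had 1 peak each, of 2.4 and 2.2 kb. Dhx9 KO replicate 1 had none, and Dhx9 KO replicate 2 had 2 peaks over 6.2 kb. All 4 knockout libraries lay below both wild-type libraries, and the mean called share was 0.141 times wild-type in Uhrf1 KO and 0.190 times in Dhx9 KO cells.

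Chromosome 8, on which Gab1 lies, was called well above the genome share in every library but Dhx9 KO replicate 1. Peaks took 29.9% and 29.5% of the chromosome in wild-type replicates 1 and 2, against 15.3% and 14.7% of the genome. In Dhx9 KO replicate 2, with 14.6% of the genome called, they took 1.01 times the wild-type mean of the chromosome. In Dhx9 KO replicate 1, with 15.01% of the genome called, they took 13.7% of the chromosome. That is 0.460 times the wild-type mean, where the other 19 chromosomes (autosomes and X) of this library ran from 0.694 to 1.75 times. Of the 1499 genes of chromosome 8 with peaks in both wild-type libraries, 22.5% had none in Dhx9 KO replicate 1, as Gab1 had none. In Dhx9 KO replicate 2 alone, the called length of the chromosome was near wild-type, but the median ratio of these genes was 0.815. There, Gab1 was at 0.380 times the wild-type mean, and 22.4% of these genes had a smaller ratio. The lower called share of Gab1 in Dhx9 KO replicate 1 therefore cannot be told apart from that of its chromosome. This comparison was added after the data were seen.

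The peaks of Gab1 were among the weakest of the lists. All 9 wild-type peaks had a log2 fold under 1, with medians of 0.36 and 0.33, at the 3.27 and 2.15 percentiles of their lists. The most persistent peak lay upstream, between 2.48 and 3.68 kb before the nearest start, and was present in every library but Dhx9 KO replicate 1. There, the region chr8:80883001-80890400 held 307 and 269 ChIP reads in the wild-type lists, 54 and 150 in the Uhrf1 KO lists, and 200 in Dhx9 KO replicate 2. In Uhrf1 KO replicate 2 this peak had a log2 fold of 1.30, above the 0.86 and 0.20 of the nearest wild-type peaks. Another region near the 3′ end, chr8:80769601-80772000, held 121 and 75 wild-type reads and no peak in any of the 4 knockout libraries.

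Sfmbt2 encodes a Polycomb group protein with MBT domains that is needed for trophoblast growth, and an intron of the gene holds a large microRNA cluster. It lies at chr2:10370437-10595253, which ends 2.98 Mb before the reporter site, so the shift of the deposited annotation behind that site does not reach it. Called lengths were 5 and 11 kb for the wild-type replicates, 3 and 21 kb for Uhrf1 KO, and 11.2 and 13.4 kb in Dhx9 KO replicates 1 and 2. The Uhrf1 KO libraries thus lay on either side of the wild-type libraries. Both Dhx9 KO libraries lay above them, though the nearest values differed by 0.2 kb, a single bin of the peak caller.

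The strongest peak of all 5 genes was the short tandem repeat in intron 12 of Sfmbt2. Its log2 fold was 3.33 and 3.64 in wild-type replicates 1 and 2, with 81 and 107 ChIP reads against 9 and 10 background reads. Dhx9 KO replicates had log2 folds of 3.43 and 2.77, with 108 and 68 reads. Uhrf1 KO replicate 2 had a log2 fold of 1.24, with 45 reads against 15, and Uhrf1 KO replicate 1 had no peak there. The peak thus stood at or above the 98.3 percentile of 4 lists, both of wild-type and both of Dhx9 KO cells, but at the 47.4 percentile in Uhrf1 KO replicate 2. The other peaks of Sfmbt2 had log2 folds of 0.26 to 1.70 over the 6 libraries. Since 1 Uhrf1 KO library had a peak, the site was not counted among those without a Uhrf1 KO peak.

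The microRNA cluster of Sfmbt2 (71 entries, chr2:10466663-10518279) lay in intron 11 and had no peak in any of the 6 libraries. The nearest wild-type peaks ended at 10453800 and 10454000 and began again at 10529601. The peak before the cluster covered the start of 1 predicted transcript, XM_006497500.3, at position 10453587 in both wild-type and both Dhx9 KO libraries, and its region was without a peak in both Uhrf1 KO libraries. Its wild-type log2 folds were 0.75 and 0.26.

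Slc38a4 encodes a sodium-coupled neutral amino acid transporter of the placenta and liver. It lies on the reverse strand at chr15:96994823-97055956, and its peaks lay outside the transcripts, except for 1 peak in Dhx9 KO replicate 1. Wild-type peaks lay downstream of the gene, in 1 and 2 peaks with log2 folds of 1.42, and of 1.68 and 1.11. The region (chr15:96982201-96991200) was called in all 6 libraries, with 375 and 317 ChIP reads for the wild-type replicates, 213 and 512 for Uhrf1 KO, and 284 and 436 in Dhx9 KO replicates 1 and 2. Peaks took 6.88% and 5.40% of the window in the wild-type replicates, 6.38% and 11.1% in those of Uhrf1 KO, and 20.1% and 15.4% in those of Dhx9 KO. Uhrf1 KO libraries overlapped the wild-type values, and both Dhx9 KO libraries lay above them, at 2.90 times the wild-type mean. The direction turned with stricter peaks, to a difference from wild-type of -1.60 points at a false discovery rate of at most 1e-10, -2.94 points with a log2 fold of at least 1, and -0.863 points with equal numbers of peaks in each list.

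Both regions gained in Dhx9 KO over the 5 genes lay at Slc38a4. One, upstream of the first start (chr15:97059001-97066200), had 231 and 216 ChIP reads in Dhx9 KO replicates 1 and 2 and no peak in either wild-type or Uhrf1 KO library. The other, just beyond the 3′ end (chr15:96992001-96994600), had 100 and 62 reads in Dhx9 KO cells, and also a peak of 84 reads in Uhrf1 KO replicate 2. The upstream peaks were weak, with log2 folds of 0.27 and 0.49. The gain lay in the flanks, since without the 10 kb flanks no gene of the 5 lay higher in Dhx9 KO and no region was gained.

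Jade1 encodes a PHD finger scaffold of the HBO1 histone acetyltransferase complex. It lies at chr3:41555734-41616864, and none of its 81.1 kb window was in a peak in any of the 6 libraries. The nearest peaks within 50 kb of the gene were 1 and 3 in wild-type, none in Uhrf1 KO, and 2 and 1 in Dhx9 KO libraries. Its 4 promoters in RefSeq (GRCm38.p6, 250 bases before to 50 after a start) held 14 to 38 CpGs.

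**Figure D2:**
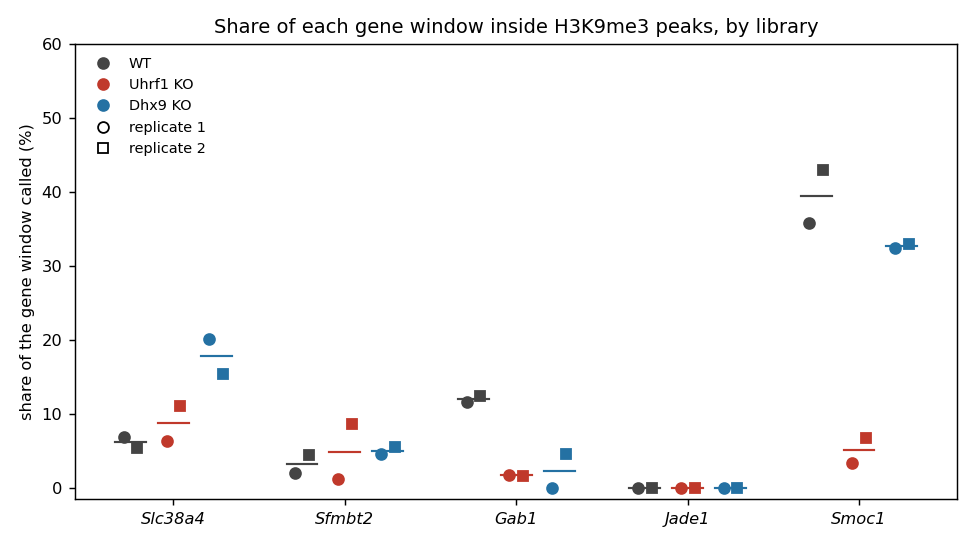
Share of each gene window inside peaks, in percent on the y axis, for the 5 genes on the x axis. Points are libraries, circles for replicate 1 and squares for replicate 2, and lines are the means of 2. Smoc1 and Gab1 lie lower in both Uhrf1 KO libraries than in both wild-type libraries, and Slc38a4 lies higher in both Dhx9 KO libraries.

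In Uhrf1 KO cells, 2 of the 5 genes (Gab1 and Smoc1) had a lower called share in both knockout libraries than in both wild-type libraries, and 0 had a higher one. Over all 29078 genes with a peak in any of the 4 libraries, which leave out Jade1, 49.5% were lower and 8.17% higher. A lower share was thus common in these lists. In its read-based comparison, the paper instead called only a small part of the consensus peaks in Uhrf1 KO cells, with more increased than decreased. Among the decreased peaks it stressed strong losses, many of them at imprinting control regions. Called shares do not measure reads. The ratio to wild-type of Smoc1, 0.129, was larger than that of 20.6% of the 24816 genes with peaks in both wild-type libraries, whose median was 0.479, and of 13.5% of the 7824 genes with at least 30% of the window called in both. The Gab1 ratio of 0.141 was larger than that of 21.4% of the 24816 genes, while Slc38a4 at 1.42 and Sfmbt2 at 1.5 exceeded 92.0% and 93.1% of them. With 2 libraries against 2, the design allows no exact two-sided permutation p below 0.333, and no test was made on the called share. Among regions with a peak in both wild-type libraries, 13 of 19 at the 5 genes had no Uhrf1 KO peak, 10 of them at Smoc1, beside 24.2% of the 79799 such regions in the genome. No region was gained at the 5 genes, beside 8.51% of the regions called in both Uhrf1 KO libraries.

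The lower share changed with the peak threshold. A log2 fold of at least 1 cut the lists unevenly. Under it lay 46.1% and 45.6% of wild-type peaks, but 20.1% and 34.9% of Uhrf1 KO peaks. With the peaks left, neither Gab1 nor Smoc1 was lower in Uhrf1 KO, beside 24.7% of all genes. Smoc1 was higher by 0.724 percentage points, beside 17.7% of genes higher. Of 2 regions 0 were lost, beside 21.6%. All wild-type peaks of Gab1 and most of Smoc1 lay under that fold, so the setting could show no loss at Gab1 and little at Smoc1. Taking the 70195 strongest peaks of each list left Uhrf1 KO replicate 1 uncut, since that is its whole list. Gab1 and Sfmbt2 were then higher, beside 19.5% of all genes. At Gab1, the Uhrf1 KO replicate 1 peak with a log2 fold of 0.364 stayed, while the wild-type peak of 0.859 was cut. Of 3 regions 1 was lost (Smoc1), beside 18.2% in the genome, and of 4 regions 1 was gained (Gab1), beside 17.7%. Without Uhrf1 KO replicate 1, Sfmbt2 and Slc38a4 were higher, beside 22.2% of all genes. Of 12 regions called in replicate 2, 5 were then gained, 4 of them at Sfmbt2, beside 14.7% in the genome. Without replicate 2, Sfmbt2 was lower along with Gab1 and Smoc1, beside 70.0% of all genes. With peaks at a false discovery rate of at most 1e-10, Smoc1 and Sfmbt2 were lower, by differences of -9.58 and -0.37 points, beside 37.4% of all genes. At that rate, 2 of 4 regions were lost, beside 24.9% in the genome. Of the 26 peaks of wild-type replicate 1 at the 5 genes, 22 overlapped a peak of wild-type replicate 2, 6 and 7 one of Uhrf1 KO replicates 1 and 2, and 18 and 20 one of Dhx9 KO replicates 1 and 2. Over the whole list these shares were 81.8%, 45.4%, 66.6%, 77% and 75.1%. Of the 53524 peaks of wild-type replicate 1 with a log2 fold under 1, 27.2% overlapped a peak of Uhrf1 KO replicate 1 and 53.6% one of replicate 2, against 61.0% and 77.6% of the stronger peaks. At Smoc1, 3 of 14 such peaks overlapped a peak in each Uhrf1 KO replicate, and at Gab1 1 of 5. The part of peak strength, depth and background in the lower share was not tested.

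In Dhx9 KO cells, Gab1 and Smoc1 had a lower called share in both knockout libraries than in both wild-type libraries, and Slc38a4 and Sfmbt2 a higher one. Over the 30169 genes with a peak in any library of this comparison, which leave out Jade1, 23.8% were lower and 15.2% higher. The Gab1 ratio of 0.190 was larger than that of 3.94% of the 24816 genes, but than that of 15.1% of the 1499 genes of chromosome 8, which was called less in Dhx9 KO replicate 1. The Slc38a4 ratio of 2.90 was larger than that of 97.8% of all 24816 and the Sfmbt2 ratio of 1.54 than that of 87.1%, around a median of 0.887. The Smoc1 ratio of 0.829 lay near that median. Of 18 regions with a peak in both wild-type libraries, 1 (at Gab1) had no Dhx9 KO peak, beside 6.97% in the genome, and 2 regions were gained, beside 8.74%. With peaks of a log2 fold of at least 1, none of the 5 genes had both Dhx9 KO libraries below or above both wild-type libraries. Over all genes, 20.6% were then lower and 11.7% higher. The same held for the 5 genes at a false discovery rate of at most 1e-10, beside 23.3% and 12.0%. Both comparisons share the wild-type libraries.

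ChIP reads per called length were compared with edgeR's quasi-likelihood test over regions of which at least 80% was called in each of the 4 libraries. For Uhrf1 KO, 2528 regions were tested, of which 140 were lower and 81 higher (5.54% and 3.20%), and no region of the 5 genes could be tested. For Dhx9 KO, 26 of 4701 regions were lower and 2 higher (0.553% and 0.0425%). The tandem repeat peak of Sfmbt2 was the 1 region of these genes in that test, with a log2 change of -0.09 (adjusted p = 0.927, edgeR). Among all 40511 regions called in all 4 libraries, whatever their called length, 5 lay at the 5 genes in the Uhrf1 KO comparison and none passed. Their log2 changes in reads per called length were 0.29 at Slc38a4, 0.42 at Gab1, and -0.06, -0.30 and -0.25 at Smoc1 (edgeR adjusted p from 0.472 to 0.931). No region at all passed this wider test, in which 4998 had an unadjusted p under 0.05. In the Dhx9 KO comparison none of 14 such regions at these genes passed.

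The Sfmbt2 repeat could be tested in the Uhrf1 KO comparison only after Uhrf1 KO replicate 1, which has no peak there, was left out. Replicate 2 alone then gave a log2 change of -0.80 in reads per called length (adjusted p = 0.0128, edgeR), with the lone library assumed to vary like the wild-type libraries. In that fit 2993 of 9235 regions were called, against 221 of 2528 with both replicates, so a call was common in it.

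**Figure D3:**
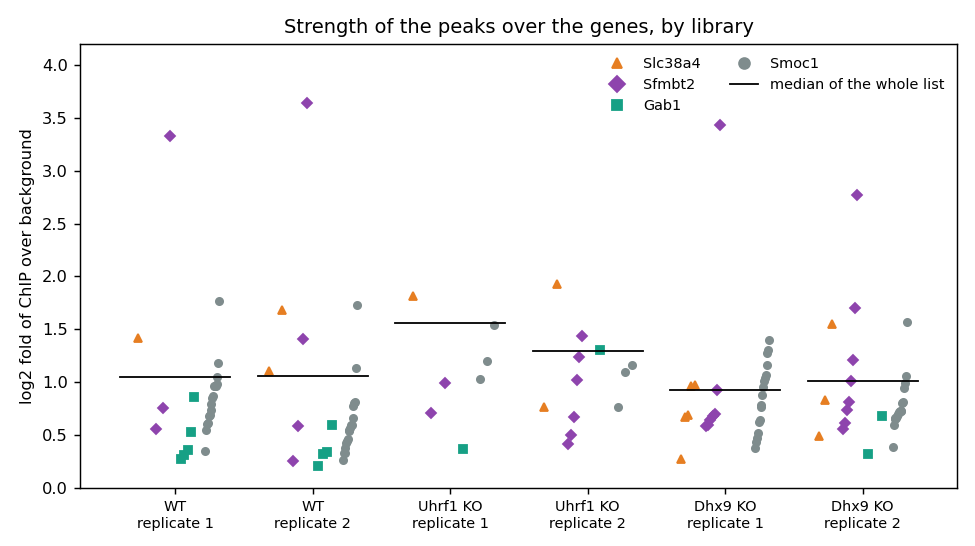
Log2 fold of ChIP over background (y axis) of every peak over Slc38a4, Sfmbt2, Gab1 and Smoc1, by library (x axis), with a line at the median of the whole list. Most Smoc1 and Gab1 peaks of the wild-type libraries lie below that line, and the Sfmbt2 repeat peak stands at 3.33 and 3.64.

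Over the 5 genes together, 21 of 26 and 22 of 28 wild-type peaks had a log2 fold under 1. In Uhrf1 KO libraries this held for 3 of 7 and 5 of 12 peaks, and in Dhx9 KO libraries for 21 of 29 and 23 of 30. The list medians moved too, to 1.56 and 1.29 in Uhrf1 KO and 0.93 and 1.01 in Dhx9 KO libraries.

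Few starts of the 5 genes lay near a peak. Of 30 annotated starts, 2 in each wild-type library, 0 in each Uhrf1 KO library and 2 in each Dhx9 KO library had a peak within 1 kb, and none of these was the start of a curated transcript of RefSeq. Over all 74608 starts, the share was 22.7% and 22.1% in wild-type, 6.82% and 14.9% in Uhrf1 KO, and 23.1% and 17.8% in Dhx9 KO. RefSeq promoters were found for 4 of the 5 genes, and none of the 11 overlapped a peak in any library. They held a median of 16 CpGs per 300 bases, against 7 for all 32851 promoters. The letters TGCCGC, the core of the ZFP57 motif once methylated, were searched on both strands and were in 0 of these 11 promoters and in 11.6% of all promoters. They were in 7 of 26 and 6 of 28 wild-type peaks of these genes, beside 28.5% and 27.3% of all peaks, and in none of the printed stretches.

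As a contrast, 14 imprinted genes with a germline methylated region were measured in the same way. All but Peg10, Grb10 and Zrsr1 had been named by the paper as losing H3K9me3 in Uhrf1 KO cells. This list was therefore not independent of these data, and most of its lower shares were known beforehand. Of the 14, 13 had a lower called share in both Uhrf1 KO libraries, beside 49.5% of all genes with a peak. The exception was Peg10, and the median ratio to wild-type over the 14 was 0.192. The called share of H19 was 100% in wild-type and 11.2% ± 15.9 (SD, n = 2) in Uhrf1 KO cells, and that of Plagl1 was 33.7% ± 3.72 and 6.89% ± 3.02. Mest, Nnat and Nap1l5 had no peak left in the Uhrf1 KO lists. In Dhx9 KO cells 5 of the 14 were lower and none higher, beside 23.8% and 15.2% of all genes with a peak. Among 8 paralogues of the 5 genes (Slc38a1, Slc38a2, Sfmbt1, Gab2, Gab3, Jade2, Jade3 and Smoc2), 3 were lower in Uhrf1 KO, 3 overlapped wild-type, and Slc38a2 and Jade3 had no peak. In Dhx9 KO, 1 paralogue was lower and 2 higher. These paralogue counts stand beside the same shares over all genes. The groups of genes were not tested against each other.

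**Figure D4:**
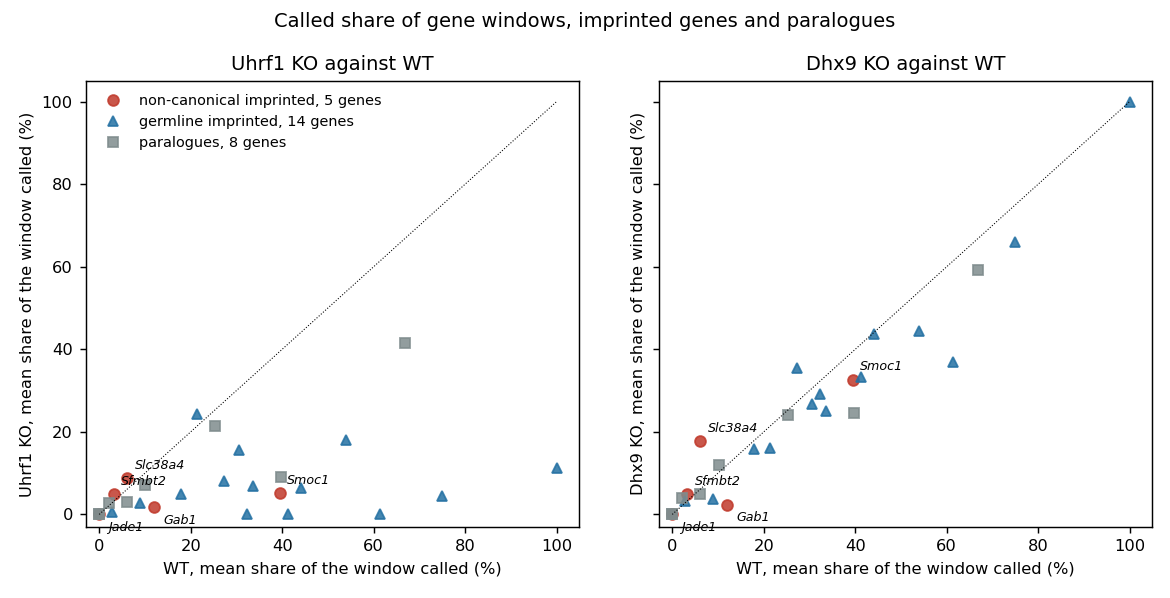
Mean share of the gene window called in wild-type (x axis) and in a knockout (y axis), in percent, for Uhrf1 KO on the left and Dhx9 KO on the right. Points are genes (means of 2 libraries), and the dotted line marks equal shares. Germline imprinted genes lie mostly far below the line in Uhrf1 KO, as do Smoc1 and Gab1, and most points lie near it in Dhx9 KO.

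The genes most like each of the 5 were named by the smallest mean absolute difference in called share over the 6 libraries, among genes with a window of 0.5 to 2 times the length. For Smoc1 these were Gm35688 and Cpne5, at 3.05 and 3.70 percentage points. For Gab1 they were Wwc2, on the same chromosome, and Nup210l, at 0.866 and 1.64 points. Sfmbt2 was nearest to Col8a1 and Fmn1, at 0.845 and 0.882 points, and Slc38a4 to Gm20619 and Rasef, at 1.68 and 1.72 points. Jade1 shared its absence of peaks with 1035 of the 10956 genes compared.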

How the data were processed

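The authors aligned reads to mm10 with Bowtie2 2.3.4.3 in local mode, took a subsample, and ran epic2 on each library in bins of 200 bp with duplicates kept. For each peak the deposited lists hold whole-number counts of ChIP and background reads, the p-value and false discovery rate of the caller, the log2 ratio of ChIP to background, and a score derived from that ratio, which was not used. The deposited annotation holds the reporter, and positions behind its insertion on chromosome 2 were shifted back by 2762 bases. Of 18 samples, 6 were used and 12 were not analysed here. The 5 genes and the contrast lists were chosen with earlier results of these data known.

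Peaks were intersected with gene windows and merged over the 4 libraries of a comparison (Python 3.11.15, pandas 2.3.3). Regions of which at least 80% was called in each library were tested with edgeR 4.0.16 (quasi-likelihood, TMM, called length as offset, adjusted p at most 0.05 by Benjamini-Hochberg) in R 4.3.3, with DESeq2 1.42.0 as an alternative. The edgeR script was tested on simulated data. Sequences came from mm10 and promoters from RefSeq (GRCm38.p6). The named genes were the 5 genes, both contrast lists, Uhrf1, Dhx9, Pou5f1, Nanog, Sox2, Zfp42 and, for each of the 5, the 2 genes nearest in called share. Uhrf1 had no peak in the wild-type and Uhrf1 KO lists, and Dhx9 none in any list. The alternatives were a false discovery rate of at most 1e-10, a log2 fold of at least 1, the 70195 strongest peaks of each list, no flanks, flanks of 50 kb, merging within 1 kb, leaving out each library, and other fits of the counts. Means ± SD are over 2 libraries, and reads in peaks ranged from 6703081 to 20875020 per library.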

Additional observations from a re-analysis of the deposited data

How the results depend on the processing

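The counts of genes and regions depended on the peak threshold. The regions that could be lost or gained changed with it, so each count stands beside its base and the share over the genome. With a false discovery rate of at most 1e-10, 2 of 4 regions were without a Uhrf1 KO peak (24.9% in the genome), against 13 of 19 (24.2%). In Dhx9 KO 0 genes were lower and 0 higher (23.3% and 12.0% of all genes), instead of 2 and 2. There, 0 of 4 regions were lost (11.3%) and 0 of 5 gained (7.47%), instead of 1 and 2. With a log2 fold of at least 1, 0 genes were lower and 1 higher in Uhrf1 KO, beside 24.7% and 17.7% of all genes. Of 2 regions, 0 were lost (21.6% in the genome). In Dhx9 KO all 4 counts were 0, beside 20.6% of genes lower and 11.7% higher, and 15.0% of regions lost and 10.4% gained. Taking the 70195 strongest peaks of each list leaves the list of Uhrf1 KO replicate 1 uncut. With them, 0 genes were lower and 2 higher in Uhrf1 KO, beside 23.3% and 19.5% of all genes. There, 1 of 3 regions was lost (18.2%) and 1 of 4 gained (17.7%). In Dhx9 KO 0 genes were lower and 1 higher (17.2% and 14.8%). Of its regions, 0 of 3 were lost (12.0%) and 1 of 5 gained (11.3%). Without flanks, 12 of 16 regions were lost in Uhrf1 KO (24.2%). In Dhx9 KO, 0 genes were then higher (12.4%) and 0 of 14 regions gained (8.74%). With flanks of 50 kb, 3 genes were lower (58.7%), 20 of 42 regions lost (24.2%) and 1 of 16 gained (8.51%) in Uhrf1 KO. In Dhx9 KO, 1 gene was lower (27.5%), 3 of 41 regions were lost (6.97%) and 5 of 41 gained (8.74%). Merging within 1 kb gave 9 of 16 regions lost in Uhrf1 KO (22.3%) and 1 of 13 gained in Dhx9 KO (8.29%).

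Among genes whose knockout libraries both lay on one side of wild-type, the difference in called share turned in direction for 4 pairs of gene and knockout. In Uhrf1 KO, Gab1 came to 0.808 points with a log2 fold of at least 1 and 1.69 with equal numbers of peaks. Smoc1 came to 0.724 with a log2 fold of at least 1. Both settings cut the wild-type lists more than those of Uhrf1 KO, and equal numbers left Uhrf1 KO replicate 1 uncut. In Dhx9 KO, Slc38a4 came to -1.60, -2.94 and -0.863 points with the false discovery rate, the log2 fold and equal numbers, and Smoc1 to 2.56, 2.67 and 4.62. Sfmbt2 in Uhrf1 KO, whose libraries lay on either side of wild-type at 1.63 points, came to -0.37 points with the false discovery rate, -0.86 with flanks of 50 kb and -2.04 without Uhrf1 KO replicate 2. The cause was not tested.

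Leaving out 1 library gave 2 to 3 genes lower and 0 to 2 higher in Uhrf1 KO, beside 51.9% to 70.0% and 12.0% to 22.2% of all genes. Of 19 to 26 regions, 13 to 19 were lost, beside 25.7% to 47.9% in the genome. Of 5 to 12 regions, 0 to 5 were gained, beside 12.8% to 21.1%. In Dhx9 KO, leaving out 1 library gave 2 lower and 2 higher, beside 33.8% to 46.2% and 22.2% to 35.6%. Of 18 to 25 regions, 1 to 7 were lost (14.0% to 17.6%), and of 18 to 27 regions, 4 to 8 were gained (14.4% to 22.3%). Read counts called 34 to 2993 regions for Uhrf1 KO, against 221, and 11 to 1007 for Dhx9 KO, against 28. The libraries behind these shifts were, for Uhrf1 KO, wild-type replicates 1 and 2 (34 and 78) and Uhrf1 KO replicate 1 (2993), and for Dhx9 KO, wild-type replicate 2 (11) and Dhx9 KO replicates 1 and 2 (710 and 1007). For regions lost in Dhx9 KO they were wild-type replicates 1 and 2 (7 and 5) and Dhx9 KO replicate 2 (4), and each of the 4 libraries raised the regions gained.

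For Uhrf1 KO, 0 regions were called among all regions with peaks in 4 libraries, 106 with DESeq2 and 51 in a fit of all 6 libraries. For Dhx9 KO, 2 were called among all such regions, 9 in the fit of 6 libraries and 15 without the length offset. With the replicate number as a block, 212 and 80 regions were called. Deviations of same-numbered libraries correlated at 0.06 and -0.07. Only the difference between the replicates of each genotype enters this value, so it cannot show whether same-numbered libraries were prepared together.

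Peak lists limit what can be seen. A region below the calling threshold has no read count, calling depends on depth, and 2 libraries against 2 cannot give an exact two-sided p below 0.333.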
